A study of Bos taurus with 94 samples.

Results

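The genes described here are 100 of the 24616 gene identifiers in a table of bovine tissue transcriptomes, chosen for being high in tissues with a stratified squamous lining. They were selected on their measured levels: for each gene, the lowest log2(FPKM + 1) among 7 libraries (rumen, rumen papillae, reticulum, omasum, esophagus, superficial tongue and lower tongue) was set against the 90th percentile of the other 87 libraries, and the 100 genes with the largest gap were taken, with 1 further gene left out by the rule and not analysed here. FPKM is a fragment count scaled to transcript length and to the mapped fragments of the library. Because these values chose the genes, the difference between the 7 libraries and the other 87 is given as a description and is not tested.

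RNA was sequenced from 94 snap-frozen tissues of cattle labelled as Hereford breed and adult age, with no treatment or mutation named; 1 library labelled fetal testis, among the other 87, carries the adult label too. The libraries used most are the forestomach (rumen, rumen papillae, reticulum and omasum) and the tongue and esophagus (superficial tongue, lower tongue and esophagus), the eye labelled as cancerous and the outer eye layer labelled as normal and taken 1 cm from it, the urinary tract (ureter, bladder and urethra) and the kidney (cortex and medulla), and the cervix and vagina (cervical lining and vaginal fornix) and the endometrium (caruncular, and intercaruncular from the sides labelled ipsilateral and contralateral CL). The labels name no animal and no microdissection. Replicates of a group are different tissues of 1 anatomical class or samples of the same organ, such as superficial and lower tongue, or rumen and rumen papillae. The p-values measure the spread between these libraries, which cannot be taken as independent replicates. In bulk tissue, fewer cells of a type and less RNA per cell cannot be told apart.

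Stratified squamous epithelium is a layered lining in which cells divide at the base, then flatten and fill with keratin filaments as they move towards the surface. In cattle it lines the forestomach, esophagus and tongue, and also part of the vagina and the outer surface of the eye. The labels do not give the lining of the vaginal fornix sampled here. The ureter and bladder carry urothelium, and the endometrium carries a simple columnar epithelium. Cancer eye is the common name of bovine ocular squamous cell carcinoma, a tumour that arises from the squamous surface of the eye and lids.

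The identifiers are not paired with gene names in the tables used here (0 of 24616 matched), so members are given by identifier, without a role. For the same reason the label "stratified squamous" could not be checked against keratin or desmosome markers, and it rests on the tissue labels of the 7 libraries. Some libraries lie nearest to a library of a different kind of tissue. Almost every label occurs once, so a nearest library of another label does not by itself show a wrong label. By correlation across 17931 genes tested, with the 100 members left out and given as a description, normal outer eye lay nearest to the library labelled prostrate (Spearman's rho 0.922) and then to the salivary gland (0.893). The library labelled urethra lay nearest to the fat library labelled KPH (0.969), the ureter to the vesicular gland (0.942), the bulbourethral gland to cancer eye (0.918), and the eye library labelled Ant_Eye to nasal mucosa (0.874) and then to the library labelled isthmus_ipsilateral_CL (0.862). Nasal mucosa lay nearest to the KPH library too (0.885), and cancer eye to superficial tongue (0.923). Esophagus, grouped here with the tongues, lay nearest to reticulum (0.929) and then to superficial tongue (0.925). Results that involve these libraries refer to them as labelled. The eye and urinary comparisons and the counts over the 87 libraries are also given with a doubted library left out or replaced. The read depth behind the FPKM values is unknown.

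The members span a wide range of abundance in the 7 libraries. Their median FPKM over those libraries ran from 4.32 to 16871, with 96 members at 10 or more, 56 at 100 or more and 17 at 1000 or more. The 2 members of highest rank were ENSBTAG00000039425 and ENSBTAG00000004097. ENSBTAG00000039425 had 5806 FPKM in rumen, 4946 in rumen papillae, 5919 in reticulum, 4540 in omasum, 6455 in esophagus, 12824 in superficial tongue and 15951 in lower tongue. It had a median of 0.968 FPKM in the other 87 libraries, of which cancer eye was the highest at 8505 and the bulbourethral gland had 689. ENSBTAG00000004097 had 904 FPKM in rumen, 1397 in rumen papillae, 596 in reticulum, 1573 in omasum, 1549 in esophagus, 1644 in superficial tongue and 1938 in lower tongue, against a median of 0.242 in the other 87. Only cancer eye, at 638 FPKM, reached the lowest of the 7 libraries for this gene. At the other end, the gap was 1.43 (log2) for the last gene inside, ENSBTAG00000016246, and also 1.43 for the first outside, ENSBTAG00000047250.

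A few members held most of the members' summed FPKM. The summed FPKM of the 100 members was 9.41% to 11.6% of the FPKM total in the 4 forestomach libraries, 15.1% in esophagus, 21.3% in lower tongue and 21.7% in superficial tongue, against a median of 0.073% in the other 87. The 10 most abundant members held 68.4% of the member sum in rumen papillae and 82.3% in superficial tongue, the lowest and highest of the 7. The most abundant by its median over the 7 was ENSBTAG00000012638, with 13029 FPKM in rumen, 13979 in rumen papillae, 8799 in reticulum, 16871 in omasum, 29513 in esophagus, 40664 in superficial tongue and 38252 in lower tongue. The tongue and esophagus values all lay above the forestomach values for this gene, as for 8.85% of all genes tested. The difference was not called in the test between these groups given below (limma adjusted p = 0.188).

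**Figure D1:**
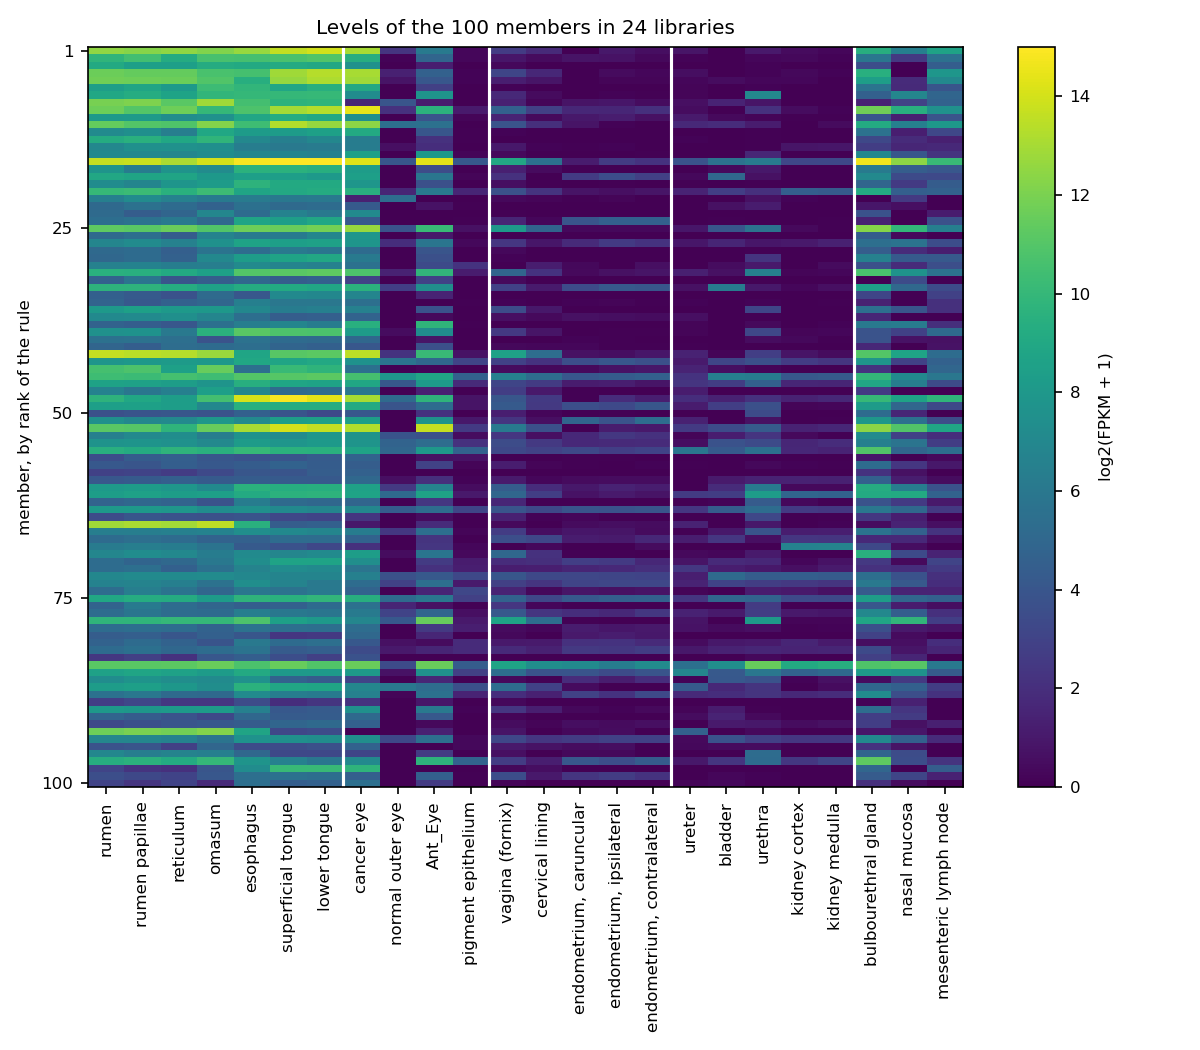
Heat map of log2(FPKM + 1) for the 100 members (rows, by rank of the rule) in 24 libraries (columns); white lines separate the 7 libraries of the rule, the eye, the female tract, the urinary tract and kidney, and 3 other libraries. Cancer eye is near the 7 libraries in level, with 89 members at 10 FPKM or more, while normal outer eye has 19 and cervical lining 8.

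The members also differed among the 7 libraries. For the median member the highest of the 7 was 4.10 times the lowest, and for the widest it was 593 times. In 50 members the range was at least 4-fold and in 12 at least 16-fold. Esophagus was the highest of the 7 for 30 members, lower tongue for 20, omasum for 18 and superficial tongue for 12, while rumen papillae led for 11, rumen for 5 and reticulum for 4. Omasum was the lowest of the 7 for 27 members and reticulum for 24. The closest pair was superficial and lower tongue, with a median absolute difference over the members of 0.22 (log2), against 0.23 over all genes tested. Rumen papillae and rumen differed by 0.25, against 0.28 over all genes. Reticulum and lower tongue were the farthest apart, at 1.18 for the members against 0.47 for all genes. Unlike the members, many of the genes tested were under 1 FPKM in these libraries, where log2(FPKM + 1) understates changes. Nothing is therefore read from the members differing more or less than all genes.

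Outside the 7 libraries, cancer eye stood nearest. The mean log2(FPKM + 1) over the members was 7.05 to 7.60 in the 7 libraries and 6.97 in cancer eye. It was 5.41 in the bulbourethral gland, 4.29 in Ant_Eye, 3.34 in nasal mucosa, 2.81 in the mesenteric lymph node, 2.22 in vagina and 2.05 in urethra. The median of the 87 was 0.91. Cancer eye reached the lowest of the 7 libraries for 75 members (background 95.2% of all genes tested). The rule took genes with a high lowest value, so nothing is read from these shares. Cancer eye was the only one of the 87 to reach that value for 32 members. It was the highest of the 87 for 60 members, the bulbourethral gland for 12 and Ant_Eye for 5, and 13 members were reached by no library outside the 7. With the bulbourethral gland left out, cancer eye was the highest for 67 members and the only one to reach the 7 for 45, and 14 were reached by none. The rule limits how many of the 87 can reach the 7, and these counts were not made over all genes. They are given as a description only.

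Cancer eye held members from the whole list, with 23 of the 25 of highest rank at 10 FPKM or more, then 24, 22 and 20 in the next groups of 25. The bulbourethral gland had 19, 18, 17 and 14 in the same groups, and the mesenteric lymph node had 17, 10, 6 and 3. In the bulbourethral gland, nasal mucosa and mesenteric lymph node the most abundant member was again ENSBTAG00000012638, at 26339, 5575 and 1145 FPKM. All 40 members at 10 FPKM or more in nasal mucosa were among the 68 of the bulbourethral gland. Of these 40, 39 were also among the 89 of cancer eye. The bulbourethral gland lay nearest to cancer eye, a different kind of tissue, and its label could not be checked.

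**Figure D2:**
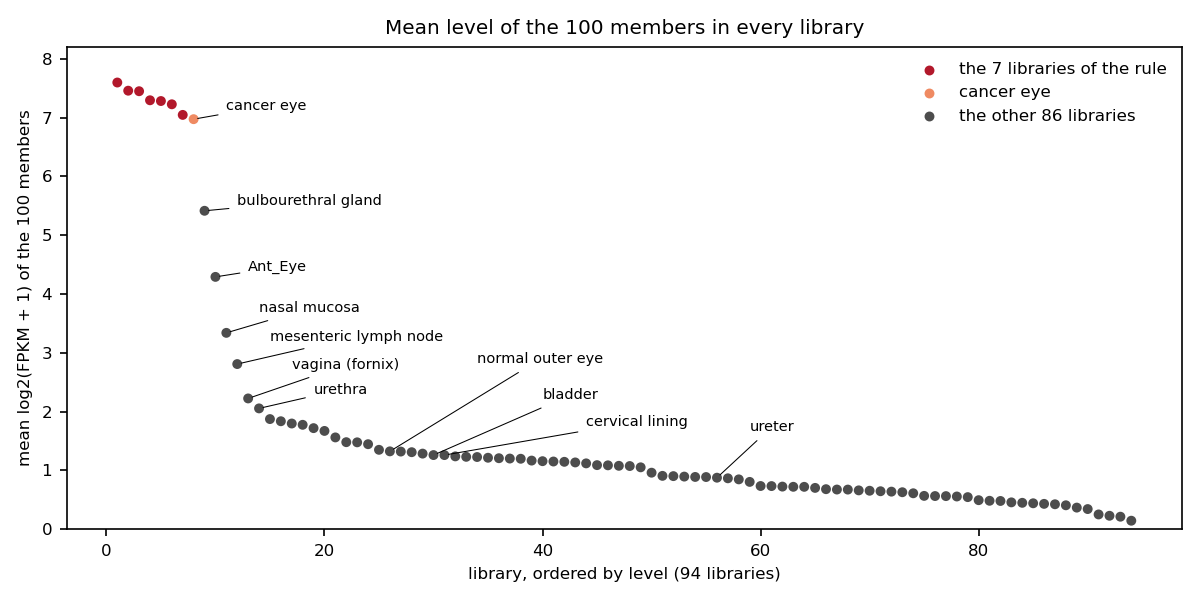
Mean log2(FPKM + 1) of the 100 members in each of the 94 libraries, ordered by level; red points are the 7 libraries of the rule and the orange point is cancer eye. Cancer eye, at 6.97, lies just under the 7 libraries, and the bulbourethral gland follows at 5.41.

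The eye labelled as cancerous carried nearly the whole set, and the outer eye layer labelled as normal carried little of it. Cancer eye had 98 members at 1 FPKM or more and 0 listed at 0. Normal outer eye had 35 members at 1 FPKM or more and 56 listed at 0. The members made up 17.6% of the FPKM total in cancer eye and 0.0993% in normal outer eye. With 1 library each there is no replicate check and no test. Both libraries are among the 87 that set the rule's upper limit, so a low level in most of the 87 was part of the choice.

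By a log2 difference of at least 2, a 4-fold change of FPKM + 1, 94 members were higher in cancer eye than in normal outer eye (background 9.16% of all genes tested) and 2 were lower (background 5.85%), with 4 in between. The median difference was 5.33 (log2) over the members and 0.00 over all genes tested. A low value in most of the 87 libraries was part of the choice of members. Many of the genes tested were also too low in both libraries to pass this limit. The counts and medians are therefore not set against those of all genes. ENSBTAG00000012640 had 9783 FPKM in cancer eye and was listed at 0 in normal outer eye, with 858 to 16700 in the 7 libraries. ENSBTAG00000007583, the most abundant member in cancer eye, had 22616 FPKM there and 3.37 in normal outer eye, a log2 difference of 12.34. Cancer eye exceeded all 7 libraries for this gene, which had 3281 FPKM in rumen, 2012 in rumen papillae, 3275 in reticulum, 1028 in omasum, 1816 in esophagus, 8155 in superficial tongue and 10342 in lower tongue.

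The 2 members that were lower are high in all 7 libraries, and their medians in the other 87 are 0 and 0.431 FPKM. ENSBTAG00000009186 had 1.60 FPKM in cancer eye and 40.1 in normal outer eye, a log2 difference of -3.99, with 63.7 to 148 in the 7 libraries. ENSBTAG00000031376 had 1.92 FPKM in cancer eye and 14.4 in normal outer eye, a log2 difference of -2.40, with 823 to 7409 in the 7 libraries. For both genes the salivary gland was the highest of the 87 libraries, at 43.2 and 46.9 FPKM, and it is also the next nearest library to normal outer eye; the part of this in the result was not tested.

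Set against Ant_Eye, cancer eye had fewer members past the same limit. In this comparison, added after seeing the data because of the doubt about normal outer eye, although Ant_Eye too lies nearest to another tissue, 58 members were higher in cancer eye (background 5.45%) and 2 were lower (background 5.65%), and the median difference was 2.47 over the members and 0.00 over all genes. For the same reasons these values are not set against those of all genes. Ant_Eye had 81 members at 1 FPKM or more and 55 at 10 or more. Those 55 were all among the 89 that cancer eye had at 10 or more. All 26 members at this level in vagina and all 8 in cervical lining were among the 89 too, so this overlap is not particular to the eye. ENSBTAG00000012640, listed at 0 in normal outer eye, had 13364 FPKM in Ant_Eye.

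Compared with the 7 libraries, cancer eye lay above their highest value for 15 members (background 24.4% of all genes tested) and below their lowest for 25 (background 4.76%). The rule took genes with a high lowest value, so nothing is read from these shares. Members that cancer eye lacked include ENSBTAG00000036116, at 0.927 FPKM, and ENSBTAG00000032236, at 0.066, which are described with the forestomach. ENSBTAG00000025531, a member high in tongue, had 847 FPKM in cancer eye, against 3.22 to 14.4 in the forestomach libraries.

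**Figure D3:**
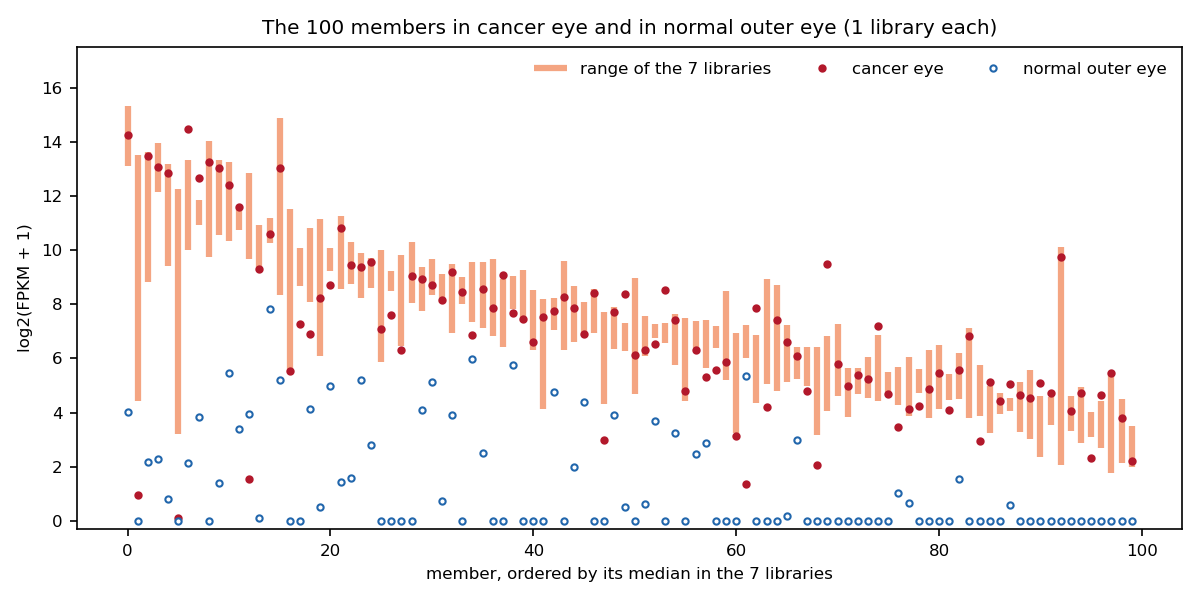
log2(FPKM + 1) of each of the 100 members, ordered by median in the 7 libraries, in cancer eye (filled red) and normal outer eye (open blue), with the range of the 7 libraries as bars. Most red points fall within or near the bars, and 56 blue points sit at 0.

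Among the 7 libraries, forestomach and tongue with esophagus differed for 32 of the 100 members. The rule asked for a high value in each of these 7 libraries and so bounds how low a member can be in either group, and the calls are not independent of that choice. A member was called in limma where its Benjamini-Hochberg adjusted p, taken over the 18031 genes of the fit, was under 0.05 and its log2 difference 1 or more. By this, 13 members were higher in forestomach (background 3.53%) and 19 were lower (background 2.32%), with 68 not called. All 100 members passed the filter on low values, since the lowest value of any member in the 7 libraries was 2.45 FPKM. The other genes of the fit had no such floor, and many were under 1 FPKM in these libraries. The counts are therefore not set against the background shares. The median difference was -0.49 (log2) over the members and 0.00 over all genes. The tongues also carried skeletal muscle transcripts: 50 genes with a high median over the skeletal muscle libraries, none of them members, averaged 0.85 to 1.38 (log2) in the forestomach libraries and esophagus, against 5.96 in superficial tongue and 4.67 in lower tongue. They averaged 9.19 to 9.84 in the skeletal muscle libraries other than diaphragm, which had 0.43. Whether this has a part in the difference was not tested.

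The largest rise in forestomach was that of ENSBTAG00000036116. It had 7533 FPKM in rumen, 8926 in rumen papillae, 7851 in reticulum and 11729 in omasum, against 732 in esophagus, 20.51 in superficial tongue and 23.0 in lower tongue. The groups did not overlap, and esophagus stood between the tongues and the forestomach. The log2 difference was 6.94 (SE 1.29, limma adjusted p = 0.029). ENSBTAG00000032236 had the same order of tissues, with 3281 FPKM in rumen, 4120 in rumen papillae, 3607 in reticulum and 4840 in omasum, against 427 in esophagus, 8.16 in superficial tongue and 9.61 in lower tongue. Its log2 difference was 6.82 (limma adjusted p = 0.038, with an SE of 1.398). Among the 87 libraries both were highest in caecum, at 617 and 2030 FPKM. Both calls were lost when any library other than esophagus was left out, at limma adjusted p of 0.068 to 0.105 for the first gene and 0.084 to 0.131 for the other, which also lost its call without the filter on low values (limma adjusted p = 0.059).

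The largest falls were those of ENSBTAG00000025531 and ENSBTAG00000039504. ENSBTAG00000025531 had 7.45 FPKM in rumen, 3.82 in rumen papillae, 3.22 in reticulum and 14.4 in omasum, against 158 in esophagus, 1109 in superficial tongue and 1098 in lower tongue. Its log2 difference was -6.33 (SE 0.85, limma adjusted p = 0.011), and without superficial tongue the limma adjusted p was 0.053. ENSBTAG00000039504 had 816 FPKM in rumen, 479 in rumen papillae, 325 in reticulum and 1436 in omasum, against 17319 in esophagus, 30031 in superficial tongue and 21408 in lower tongue. All 3 libraries of tongue and esophagus lay more than 10-fold above the highest forestomach value. The log2 difference was -5.09 (SE 0.55, limma adjusted p = 0.007), and it kept its call without any single library.

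The other called members differed less, with log2 differences of 1.03 to 3.11 for the rest of those that were higher in forestomach and -1.04 to -3.17 for the rest of those that were lower. Esophagus lay on the forestomach side of both tongues for 11 of the 13 members that were higher in forestomach and for 9 of the 19 that were lower. The same count was not made over all genes, so it is not read as particular to the members. The count of called members depended on single libraries. It was 6 without superficial tongue, 9 without lower tongue, 11 without rumen, 16 without reticulum and 18 without rumen papillae, against 32 with all 7. Superficial and lower tongue, the closest pair over the members, are samples of the same organ, so the spread within their group may be understated.

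**Figure D4:**
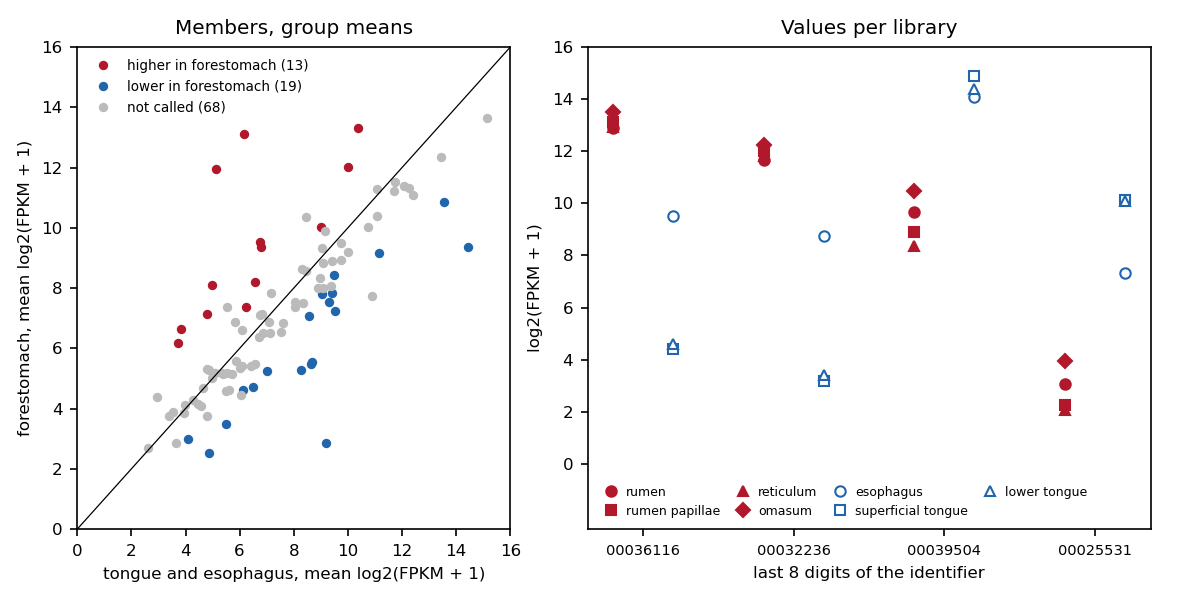
Left, mean log2(FPKM + 1) of each member in forestomach (vertical) and in tongue and esophagus (horizontal), coloured by the limma call, with the line of equal levels. Right, the 4 members named in the text, each with the 4 forestomach libraries (filled) left of the 3 tongue and esophagus libraries (open); esophagus sits between the tongues and the forestomach for all 4.

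In the lower female tract the members were present at a low level, more in vagina than in cervix. Vagina had 62 members at 1 FPKM or more and 26 at 10 or more, and the cervical lining had 42 and 8. The 3 endometrium libraries had 33 to 37 at 1 FPKM or more and 10 to 11 at 10 or more. Of the 26 members at 10 FPKM or more in vagina or cervix, all 26 were higher in vagina (background 56.3% of such genes), with a median difference of 1.85 (log2), from 1 library each. The summed members made up 0.431% of the FPKM total in vagina and 0.0812% in cervix, so both lay far under the 9.41% of the lowest forestomach library.

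The most abundant member in vagina was ENSBTAG00000012638, the most abundant in the 7 libraries too, at 509 FPKM in vagina and 48.2 in cervix. The most abundant in cervix was ENSBTAG00000037651, at 171 FPKM, with 420 in vagina and 141, 81.5 and 148 in caruncular, ipsilateral and contralateral endometrium. That member was not particular to these tissues: it had 1 FPKM or more in all 87 other libraries.

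Against endometrium, 11 members were higher in cervix and vagina (limma, background 2.15%) and 4 were lower (background 9.68%), with a median difference of 0.13 (log2) over the members and -0.22 over all genes. As the members passed the filter through the 7 libraries, 34 were under 1 FPKM in all 5 libraries compared here, against 18.6% of all genes tested, and the counts are not set against the background shares. ENSBTAG00000004903 had 39.8 FPKM in cervix and 424 in vagina, against 0.047, 0 and 0 in caruncular, ipsilateral and contralateral endometrium. Its log2 difference was 7.02 (SE 1.07, limma adjusted p = 0.026). ENSBTAG00000006806 had 39.7 FPKM in cervix and 386 in vagina, against 0.570, 0.455 and 0.913 in the endometrium libraries, which differ by 6.26 on the log2 scale (SE 1.03, limma adjusted p = 0.029). For both genes vagina was about 10 times cervix, and both were far above every endometrium library. Groups without overlap in this direction were seen for 12.7% of all genes tested.

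The 4 lower members were led by ENSBTAG00000035171. It had 0.212 FPKM in cervix and 1.97 in vagina, against 14.4, 23.4 and 23.3 in caruncular, ipsilateral and contralateral endometrium, which is -3.46 on the log2 scale (SE 0.48, limma adjusted p = 0.023). ENSBTAG00000000585 had 0.533 FPKM in cervix and 3.99 in vagina, against 27.7, 13.1 and 40.8 in the endometrium libraries, which is -3.22 on the log2 scale (SE 0.74, limma adjusted p = 0.0499). For both genes every endometrium library lay above cervix and vagina, as for 44.1% of all genes tested.

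Log2 differences of the other called members ran from 1.55 to 6.09 among those that were higher and were -1.26 and -1.46 for those that were lower.

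With 2 libraries against 3, the calls rested on single libraries. Without caruncular endometrium 0 members were called by limma (27 at an unadjusted p under 0.05), without ipsilateral endometrium 0 (30), and without contralateral endometrium 2 (28). Without cervix 30 were called, all higher, and without vagina 20. By quantile normalization, which moved the median of all genes from -0.22 to 0.00 (log2), 15 members were higher and 1 lower. The count was 3 without the filter on low values and 4 with the spread of all 94 libraries. ENSBTAG00000000585 kept its call in only 1 of 10 alternatives, FPKM rescaled to equal totals, and ENSBTAG00000004903, ENSBTAG00000006806 and ENSBTAG00000035171 lost theirs whenever an endometrium library was left out (limma adjusted p of 0.058 to 0.109). ENSBTAG00000035171 also lost its call without cervix (limma adjusted p = 0.052), and ENSBTAG00000004903 and ENSBTAG00000006806 lost theirs without the filter (limma adjusted p = 0.052 and 0.058).

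**Figure D5:**
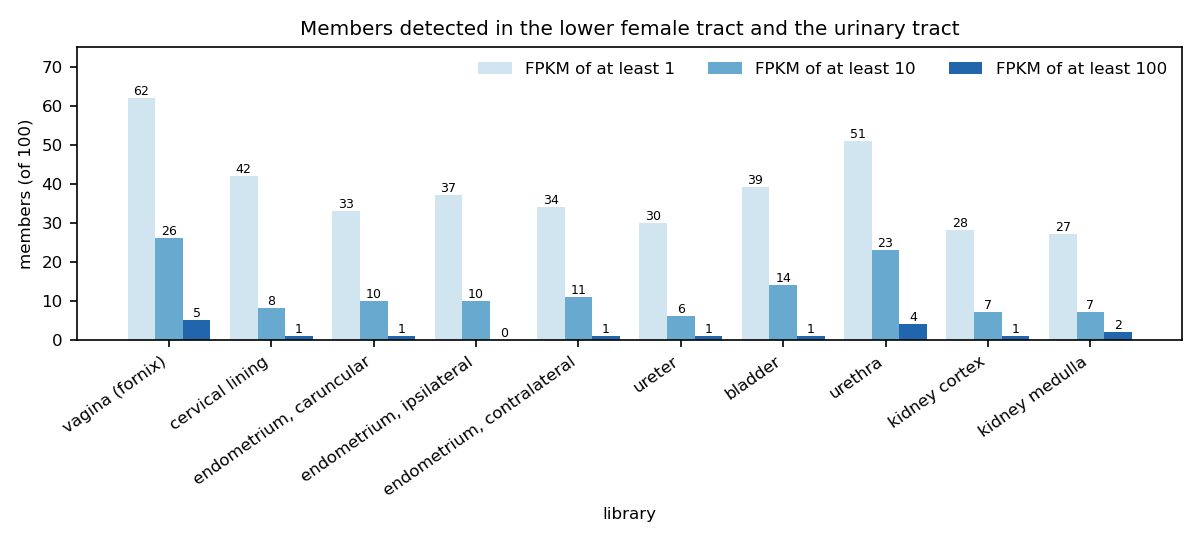
Number of the 100 members at an FPKM of at least 1, 10 and 100 (light to dark bars) in the vagina and cervix before the endometrium, and the urinary tract before the kidney. Vagina has 62 members at 1 FPKM or more and urethra 51, while the kidney libraries have 27 and 28.

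In the urinary tract the members were mostly at a low level, and 1 gene held most of the members' summed FPKM in the urethra. Ureter had 30 members at 1 FPKM or more and 6 at 10 or more, bladder 39 and 14, and urethra 51 and 23. Kidney cortex had 28 and 7, and medulla had 27 and 7. Of the 27 members at 10 FPKM or more in urethra or bladder, 19 were higher in urethra (background 64.2%), so the share is near that of all genes. ENSBTAG00000037651 had 2875 FPKM in urethra, which was 64.3% of the urethra's member sum, against 173 in bladder, 46.2 in ureter, 552 in kidney cortex and 680 in medulla. It was also the top member in bladder. The top member in ureter was ENSBTAG00000003806, at 119 FPKM, with 17.3 in bladder and 59.5 in urethra and 25.4 and 34.2 in kidney cortex and medulla.

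Against kidney, 1 member was higher in the urinary tract (limma, background 4.51%) and 2 were lower (background 6.88%). The median difference was 0.35 (log2) over the members and 0.05 over all genes, and 10 members had an unadjusted p under 0.05. All members passed the filter through the 7 libraries, and 33 were under 1 FPKM in all 5 libraries compared here, against 17.6% of all genes tested, so the counts are not set against the background shares. ENSBTAG00000047330 had 59.1 FPKM in ureter, 17.7 in bladder and 44.8 in urethra, against 2.13 in kidney cortex and 1.77 in medulla. The groups did not overlap for this gene, as for 30.3% of all genes tested in this direction. Its log2 difference was 3.66 (SE 0.58, limma adjusted p = 0.031). This gene was not particular to the urinary tract: it had 1 FPKM or more in all 87 other libraries. Its median there was 22.3 FPKM, above bladder and both kidney libraries. ENSBTAG00000015056 was listed at 0 in ureter, bladder and urethra, against 98.2 FPKM in kidney cortex and 103.2 in medulla (limma adjusted p = 9.1e-04). Both kidney libraries lay above the 7 libraries, which had 7.98 to 85.2 FPKM, and jejunum was the highest of the 87 at 490. ENSBTAG00000017425 had 1.76 FPKM in ureter, 5.89 in bladder and 3.31 in urethra, against 21.8 in kidney cortex and 19.1 in medulla, which is -2.30 on the log2 scale (SE 0.45, limma adjusted p = 0.045).

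The calls of ENSBTAG00000047330 and ENSBTAG00000017425 were lost without kidney cortex, medulla, ureter or urethra (limma adjusted p of 0.056 to 0.268) and without the filter (0.052 and 0.074). ENSBTAG00000017425 also lost its call with a pseudocount of 0.1 (limma adjusted p = 0.058) and with the spread of all 94 libraries (0.225), and that of ENSBTAG00000015056 held in all 10 alternatives. Without kidney cortex or without medulla, 1 member was called. Without ureter 7 were called, of which 6 were higher in the urinary tract, and without urethra 2 were called, both lower. The count was 6 with a pseudocount of 0.1 and 1 without the filter. The median over the members was 0.04 (log2) without urethra.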

How the data were processed

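RNA was extracted from snap-frozen tissue, per the labels' protocols. The authors deposited 1 FPKM value per gene and library, made with HISAT2 and StringTie on the genome build UMD3.1, per the submitters' processing notes; the sources used here give no versions, annotation or depth. An FPKM of exactly 0 may be a failed estimate and is called listed at 0.

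Libraries were grouped by tissue label. The fits took 18031 genes, those reaching 1 FPKM in 3 or more libraries. Differences of log2(FPKM + 1), a scale that understates changes of low genes, were tested two-sided by limma (version 3.58.1, R 4.3.3) with trended empirical Bayes, using only the libraries compared. The step was tested on simulated data. Other values came from Python 3.11.15, numpy 2.4.6 and pandas 2.3.3. The eye libraries, 1 each, were compared by size only.

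The members, groups and tests were chosen with earlier results of these data known. Members named are the 2 of highest rank, at most 2 per direction of a comparison, and the most abundant in each of 6 libraries. The muscle genes, the comparison with Ant_Eye and the values without the bulbourethral gland were added after the data were seen. Lists of cell type markers and pathways were fixed by symbol and could not be applied. Alternatives were another pseudocount, no filter, rescaled or quantile normalized FPKM, the spread of all 94 libraries, a smaller fold limit, and each library left out.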

Additional observations from a re-analysis of the deposited data

Results flagged for a closer look

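ENSBTAG00000037651 had 2987 FPKM in omasum, against 2316 to 2371 in the other 3 forestomach libraries. The omasum library stood far from the others for this gene, by Dixon's test at the 95% level, in a group of 4. It was 1 of 23 values tested in this way, and chance flags about 1 in 20. No explanation was tested.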

How the results depend on the processing

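Of the 100 members, 73 were shared when the median over the 7 libraries replaced their lowest value, and 77 and 84 when the median or the 95th percentile of the other libraries replaced the 90th. With another scaling or pseudocount, or without cancer eye or (added after seeing the data) the bulbourethral gland among the others, 94 to 99 were shared, and 95 to 100 when each of the 7 libraries was left out. The eye count of 96 members was 96 or 97 with another fold limit, pseudocount or scaling, and 60 with Ant_Eye in place of normal outer eye. For forestomach against tongue and esophagus, 22 to 29 members were called under the other scalings, pseudocount, filter and spread, against 32, and 6 to 33 when each library was left out. For the urinary tract against kidney, 3 became 6 with a pseudocount of 0.1 and 1 without the filter, and 1 to 7 when each library was left out. For cervix and vagina against endometrium, 15 became 3 without the filter and 4 with the spread of all 94 libraries, and 0 to 30 when each library was left out. Fits without the filter tested more genes. The causes of the other shifts were not tested. Of 118 values recomputed for named members, 71 kept their call, 47 no longer passed the threshold and 0 reversed. Where 1 library was left in a group, it was assumed to vary like the others. No paired analysis was possible because replicate numbers came only from the order of the samples. The unknown depth limits what a value near 0 can show.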
